A study of Mus musculus with 8 samples.

Results

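Acod1, Arg1, Arg2, Nos2, Ido1, Odc1, Sat1, Nampt and Ch25h encode enzymes with which immune cells make or break down small metabolites, and most of them are known to be induced by inflammatory signals. They were chosen by name, as the rows of the expression table whose gene symbol was 1 of these, and all 9 were found among the 38392 genes of the table. Eosinophils of female C57/BL6 wildtype mice were sorted from bone marrow or small intestine and their RNA was read, with 4 mice and 4 libraries per tissue, to ask how the cells differ between the site where they form and the site where they settle. The mice of both groups carried no transgene and received no treatment, and the labels give no age. Bone marrow cells were gated as CD11b+Ly6G-Ly6C-SiglecF+SSChi and small intestinal cells as CD11b+MHC-II-SiglecF+SSChi. After removal of the epithelium, the intestinal tissue was digested with enzymes in the warmth and its cells were enriched on CD11b beads, whereas bone marrow was flushed without digestion or beads, so tissue and handling cannot be told apart in any result here.

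Arginine can be split by arginases (Arg1 in the cytosol, Arg2 in mitochondria) into urea and ornithine, or oxidised by the inducible nitric oxide synthase Nos2. Ornithine feeds polyamine synthesis through ornithine decarboxylase (Odc1), and Sat1 acetylates spermidine and spermine so that they can be exported or broken down. Acod1 makes itaconate from the citric acid cycle intermediate cis-aconitate, Ido1 opens the kynurenine pathway of tryptophan breakdown, Nampt recycles nicotinamide to NAD, and Ch25h makes 25-hydroxycholesterol. Eosinophils are granulocytes that leave the bone marrow and settle in the wall of the intestine.

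The sequences just upstream of the RefSeq start sites fell into contrasting kinds. RefSeq on build GRCm38.p6 gave the 250 bases before the start for 5 of the 9 genes, and 4 of these are shown because they hold the extremes in base composition and motif matches. Acod1 (chr14:103046762-103047011, plus strand) and Ch25h (chr19:34475149-34475398, minus strand) stand beside Nampt (chr12:32820085-32820334, plus strand) and Odc1 (chr12:17544623-17544872, plus strand). Each is written 5′ to 3′ on the strand of its gene, and capitals mark matches to 8 short motifs searched on both strands.
Acod1: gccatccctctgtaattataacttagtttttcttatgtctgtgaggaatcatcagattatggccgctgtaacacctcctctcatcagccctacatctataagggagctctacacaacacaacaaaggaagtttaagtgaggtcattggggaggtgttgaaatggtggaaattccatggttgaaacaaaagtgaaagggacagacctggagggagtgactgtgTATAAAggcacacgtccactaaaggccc
Ch25h: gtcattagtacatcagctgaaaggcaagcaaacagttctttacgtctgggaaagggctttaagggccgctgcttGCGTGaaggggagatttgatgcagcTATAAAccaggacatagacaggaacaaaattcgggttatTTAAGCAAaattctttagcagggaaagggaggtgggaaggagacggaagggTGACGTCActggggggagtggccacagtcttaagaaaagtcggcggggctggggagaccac
Nampt: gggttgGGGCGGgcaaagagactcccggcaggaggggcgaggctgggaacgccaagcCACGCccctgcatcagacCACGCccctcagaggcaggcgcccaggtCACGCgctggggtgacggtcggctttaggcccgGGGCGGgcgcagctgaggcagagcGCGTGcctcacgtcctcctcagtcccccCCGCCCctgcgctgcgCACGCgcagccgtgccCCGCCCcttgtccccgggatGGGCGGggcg
Odc1: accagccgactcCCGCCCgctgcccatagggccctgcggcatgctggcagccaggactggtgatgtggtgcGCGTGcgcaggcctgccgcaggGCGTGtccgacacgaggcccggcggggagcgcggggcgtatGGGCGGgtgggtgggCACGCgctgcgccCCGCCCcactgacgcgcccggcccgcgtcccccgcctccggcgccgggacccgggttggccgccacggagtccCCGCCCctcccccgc

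The window of Acod1 held 44.4% G and C and 2 CpG dinucleotides, and that of Ch25h 50.4% and 8. Nampt had 75.6% and 27, and Odc1 80.0% and 35, against medians of 52.4% and 6 over all 32851 windows of the same length. The window of Sat1 (chrX:155216450-155216699, minus strand) lay between, with 59.6% and 15. The GC box letters GGGCGG stood 5 times in Nampt, 4 times in Odc1 and 2 times in Sat1, and in 32.7% of all windows. GCGTG, the core bound by the aryl hydrocarbon receptor, stood 5 times in Nampt, 3 times in Odc1 and once in Ch25h, and in 28.2% of all windows. The starts in GENCODE M21, used below for gene positions, differ. They are 103046977 for Acod1, 32819545 for Nampt, 17544794 for Odc1 and, on the minus strand, 34475164 for Ch25h. By these starts the Nampt window lay wholly inside its gene, and those of Acod1, Odc1 and Ch25h in part. TATAAA began 28 bases before the RefSeq start of Acod1, which is past its GENCODE start, and 151 bases before that of Ch25h (12.4% of all windows). Ch25h also held the cyclic AMP response letters TGACGTCA 61 bases before the start (1.55% of all windows) and a match to TTGCNNAA of C/EBP factors (9.56%). None of these 5 windows held TGANTCA (AP-1), CACGTG (E-box) or TTCNNNGAA (STAT factors), which stood in 6.75%, 6.02% and 7.02% of all windows, so the capitals show letters only and say nothing of factors at these genes. GCGTG can overlap CACGTG in part, which did not occur here. Arg1, Arg2, Nos2 and Ido1 had no entry in the table of sequences used.

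The libraries held 11508002 to 21289164 reads assigned to genes. Replicates of a tissue always differed by more than counting noise. Reads of an eosinophil marker list took 0.0221% to 0.0385% of the bone marrow libraries and 0.295% to 0.358% of the small intestinal ones. Of its 11 measured genes 5 were higher and 5 lower, with a median difference of -1.24. Most of its reads in SI_6 came from Alox15, Ccr3 and Adgre1, at 15058, 12171 and 11401, so the larger share reflects few genes. Within the list Siglecf and Ccr3, surface proteins of eosinophils, rose from 580 ± 66.0 to 3076 ± 516 and from 70.9 ± 25.7 to 16351 ± 2623 normalised counts (mean ± SD, n = 4). The granule protein genes Epx and Prg2 fell from 350 ± 40.2 to 20.6 ± 9.06 and from 1831 ± 396 to 147 ± 40.7. A normalised count is the number of reads divided by the size factor of the library. A list of neutrophil precursor genes took 3.85% to 4.58% of the bone marrow libraries, although the gate excluded Ly6G+ cells, so these genes outweighed those of the eosinophil list in the libraries labelled as bone marrow eosinophils. It took 0.252% to 0.332% of the small intestinal libraries, nearly all of it from Retnlg, which rose from 421 ± 249 to 45675 ± 7373 normalised counts while 12 of the 14 genes fell. Without Retnlg the list took 0.00847% to 0.010% of the small intestinal libraries. In bulk RNA, fewer cells of a type and less RNA per cell cannot be told apart.

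All 9 genes were higher in the small intestine. Each passed the test (limma on the deposited values of all genes, Benjamini-Hochberg adjusted p under 0.05), as did 22.0% of all genes in this direction, 12.9% in the other and 34.9% in either. For 8 of the 9, every small intestinal library was above every bone marrow library, which held for 20.3% of all genes. The exception was Nos2. Arg1, Nos2, Ido1 and Ch25h had means under 100 normalised counts, where the fit made most of its false calls on simulated reads. The median difference of the 9 genes was 1.59, beside 0.37 over all genes, on the deposited log2 scale and as small intestine minus bone marrow, as are all differences here. A difference of 0.37 is thus the middle of the table and not its zero. Centring each library on the median of all its genes takes 0.90 from the median difference, which then stood at -0.53. Under that centring 4 of the 9 genes were still called higher, namely Acod1, Arg2, Nos2 and Ido1, as were 4285 of the 38392 genes.

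**Figure D1:**
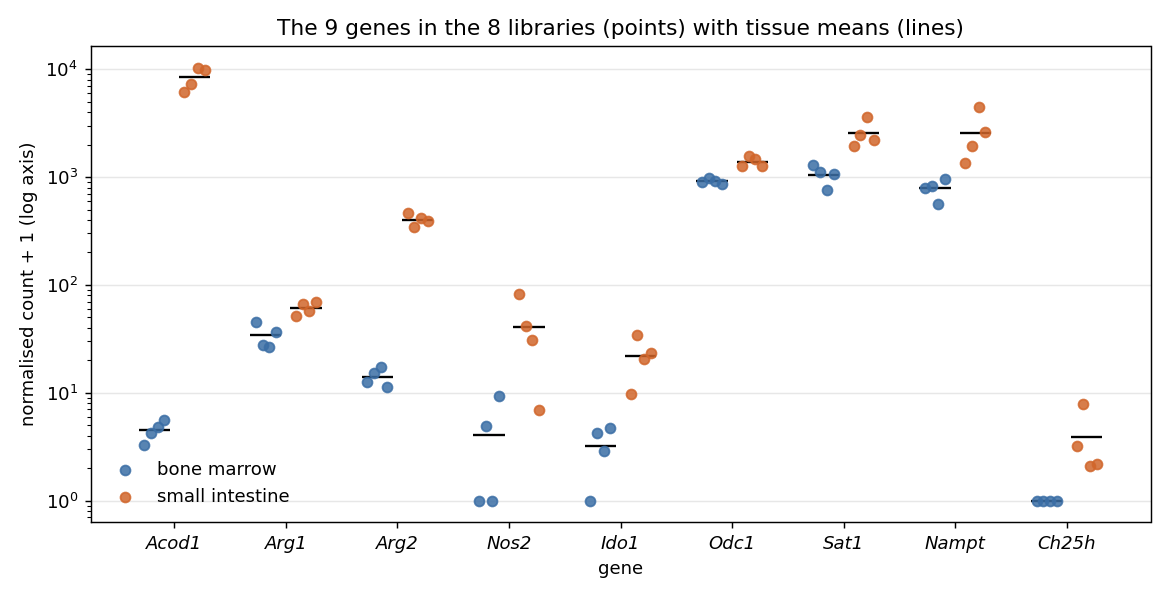
Normalised counts of the 9 genes, with 1 added, on a log axis; each point is a library, horizontal lines are group means, and the groups are bone marrow and small intestine with 4 libraries each. Acod1 moved farthest, from a mean of 3.51 to 8438, whereas the Nos2 points overlap and Ch25h lies at 0 in all 4 bone marrow libraries.

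Gene positions here and below are from GENCODE M21 on GRCm38. Acod1 (chromosome 14, 103046977 to 103056573, plus strand) was nearly silent in bone marrow and among the most abundant transcripts in the small intestine. It had 3, 5, 4 and 5 reads in BM_1, BM_3, BM_4 and BM_5, the names of the bone marrow libraries in the table, and 5611, 5303, 9480 and 8353 reads in SI_6, SI_7, SI_10 and SI_11. As normalised counts these are 2.30, 3.26, 3.83 and 4.65 against 6125, 7354, 10371 and 9901. The groups lay far apart, with SI_10 the highest and SI_6 the lowest of the small intestinal libraries.

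The Acod1 means were 3.51 ± 0.988 and 8438 ± 2033 (SD, n = 4), a ratio of 2405 that rests on 17 bone marrow reads in all. The difference was 10.26 ± 0.24 (standard error; limma, adjusted p = 1.4e-07). It was the 10th largest rise of all genes, and per kilobase of exon Acod1 went from rank 20934 to rank 135 of the table. No stretch of 75 bases of its exons, the length of a read, occurs in another gene.

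Of the arginases, Arg2 carried the larger change. Arg2 (chromosome 12, 79130777 to 79156301, plus strand) had 11.5, 14.4, 16.3 and 10.2 normalised counts in the bone marrow libraries and 461, 343, 416 and 390 in SI_6, SI_7, SI_10 and SI_11. The small intestinal values kept within a ratio of 1.34 of each other and lay clear of the bone marrow. The means were 13.1 ± 2.73 and 402 ± 49.4, a 30.7-fold ratio and a difference of 4.61 ± 0.20 (limma, adjusted p = 1.6e-06).

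Some Arg2 reads could belong to another gene. Its exons overlap those of Vti1b on the opposite strand over 285 bases and those of the antisense transcript Gm48780 over 116 bases, and 17.9% of its 75-base stretches are shared with them. The strand setting of the counting is not given in the sources used here, so reads from this overlap cannot be assigned. Vti1b itself, a gene of vesicle fusion, had 349 ± 53.4 and 367 ± 36.6 normalised counts, and its difference was 0.082 ± 0.20 (limma, adjusted p = 0.766).

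Arg1 (chromosome 10, 24915221 to 24927484, minus strand), the arginase that marks type 2 macrophages, was low in both tissues. It had 44.4, 26.7, 25.8 and 35.3 normalised counts in bone marrow and 50.2, 65.2, 56.9 and 68.7 in the small intestine. The highest bone marrow library (BM_1) came close to the lowest small intestinal one (SI_6), with no overlap. The means of 33.1 ± 8.69 and 60.3 ± 8.34 gave a difference of 0.82 ± 0.23 (limma, adjusted p = 0.0223), which fell to 0.24 with quantile normalisation (adjusted p = 0.516) and to -0.081 with centring on the median of all genes (adjusted p = 0.905). Without BM_3 or BM_4 it no longer passed (adjusted p = 0.0558 and 0.0629).

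Nos2 (chromosome 11, 78920787 to 78960254, plus strand) was rare and the most uneven of the 9 in the small intestine. It had 0, 6, 0 and 9 reads in bone marrow and 75, 29, 27 and 5 in the small intestine, or 0, 3.91, 0 and 8.37 against 81.9, 40.2, 29.5 and 5.93 normalised counts. SI_6 was 13.8 times SI_11, and SI_11 was below BM_5. The difference was 2.97 ± 0.82 (limma, adjusted p = 0.0218), and it missed the threshold without BM_1 (adjusted p = 0.0688), BM_4 (0.0677), SI_6 (0.0742), SI_7 (0.0767) or SI_10 (0.0829).

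The order of Nos2 in the small intestinal libraries was close to that of reads of genes typical of epithelium, called epithelial reads here. Reads of 13 epithelial genes took 0.232% of SI_6, 0.102% of SI_7, 0.0346% of SI_10 and 0.0343% of SI_11, against 0.000537% to 0.00125% in bone marrow. Of these genes 12 were higher in the small intestine, led by Muc2, the mucin of goblet cells, at 7324 ± 6653 normalised counts, and Tff3 was at 0 in every bone marrow library. BM_5, which held the most Nos2 of the bone marrow libraries, also held the most epithelial reads there. The 6 Paneth cell genes, all higher, took 0.159%, 0.0649%, 0.0156% and 0.0210% in the same order of libraries and at most 0.000176% in bone marrow. The paper ascribes trefoil factor and α-defensin transcripts to the eosinophils themselves. Which cells these reads came from, and the part of epithelial or Paneth cells in the Nos2 values, was not tested.

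Reads of 16 macrophage and dendritic cell genes also varied, taking 0.0912% of SI_6, 0.0639% of SI_7, 0.0248% of SI_10 and 0.0341% of SI_11, against 0.00865% to 0.00996% in bone marrow. Of these, 12 were higher and none was at 0 throughout a tissue. The 8 B and plasma cell genes took 0.268%, 0.191%, 0.0377% and 0.101% in that order of libraries and 0.00219% to 0.00441% in bone marrow. Acod1 was highest in SI_10, where the macrophage and B cell shares were lowest, and lowest in SI_6, where the epithelial and macrophage shares were highest. Most macrophage list reads in SI_6 were of the MHC class II presentation genes Cd74, H2-Aa and H2-Ab1, at 5409, 2884 and 1872. The larger share there thus reflects few genes. Within the list Csf1r had 1280, 1229, 1290 and 1405 normalised counts in SI_6, SI_7, SI_10 and SI_11. Mrc1 had 231, 128, 59.1 and 42.7 in that order. The neutrophil precursor list took 0.252% of SI_6, 0.270% of SI_7, 0.325% of SI_11 and 0.332% of SI_10, the order in which Acod1 ranked these libraries. Without Retnlg it took 0.00847%, 0.00903%, 0.00998% and 0.010%, in the same order. The mast cell and basophil list had this order too, with a wider spread. It took 0.00371% of SI_6, 0.00598% of SI_7, 0.00879% of SI_11 and 0.0122% of SI_10, against 0.0210% to 0.0287% in bone marrow. Nearly all of these reads were of Kit, with 491, 659, 1256 and 1661 in SI_6, SI_7, SI_11 and SI_10, so the order is that of Kit. Of the 9 genes of this list 1 was higher and 4 were lower. The part of any of these cells in the Acod1 values was not tested.

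**Figure D2:**
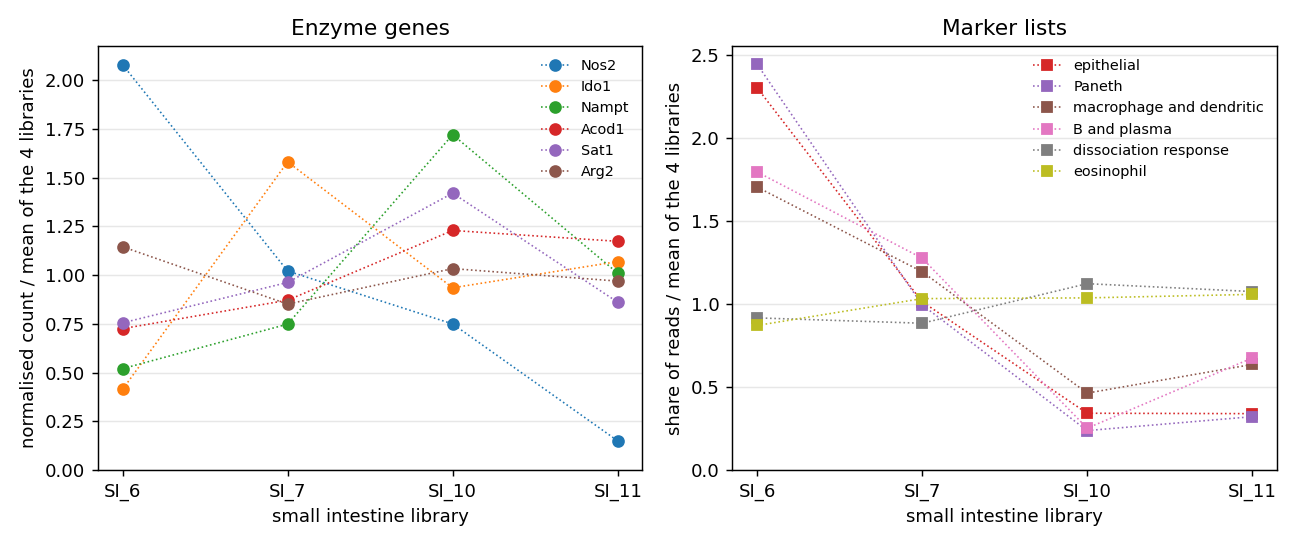
Left, normalised counts of 6 of the genes, and right, shares of reads of 6 marker lists, in the 4 small intestinal libraries (x axis), each divided by its own mean over these libraries on a linear axis from 0; dotted lines only link the points of 1 gene or list and imply no order. Nos2 and the epithelial and Paneth shares are highest in SI_6, whereas Acod1, Sat1 and Nampt are highest in SI_10.

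A ratio of genes within a library does not depend on the scaling between libraries. The reads per kilobase of Arg2 over Arg1 were 0.404 to 0.982 in bone marrow and 8.20 to 14.3 in the small intestine, so Arg1 was the more abundant arginase in every bone marrow library and Arg2 in every small intestinal one. On the log2 scale, with 0.5 read added, the means were -0.66 ± 0.62 and 3.37 ± 0.36 (exact 2-sided permutation test over 70 assignments, p = 0.0286, the smallest possible, and 0.0429 adjusted over 3 ratios). Nos2 over Arg2 was -4.67 ± 2.40 and -5.44 ± 1.49 (exact permutation p = 0.6), with Nos2 at 0 reads in BM_1 and BM_4, so no difference was detectable at this depth. Leaving out BM_5 turned the difference of that ratio from -0.77 to 0.15.

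**Figure D3:**
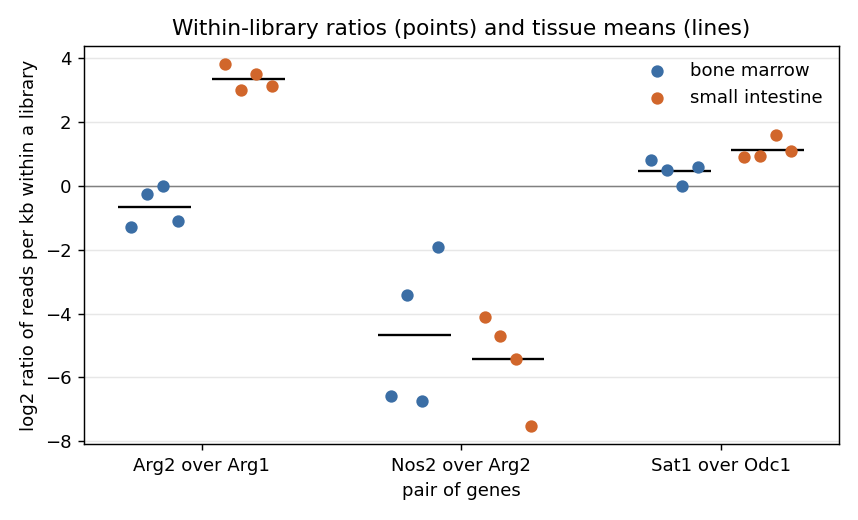
Log2 ratios of reads per kilobase within each library (0.5 read added) for Arg2 over Arg1, Nos2 over Arg2 and Sat1 over Odc1; points are libraries and lines are group means, with 4 libraries per tissue. The Arg2 over Arg1 points lie between -1.27 and -0.01 in bone marrow and between 3.02 and 3.83 in the small intestine, and the Nos2 over Arg2 points overlap.

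The polyamine genes were abundant in both tissues. Odc1 (chromosome 12, 17544794 to 17551505, plus strand) had 900, 978, 926 and 860 normalised counts in bone marrow and 1274, 1577, 1459 and 1264 in the small intestine. These did not overlap, yet the step was the smallest of the 9, from 916 ± 49.3 to 1393 ± 152 with a difference of 0.60 ± 0.18 (limma, adjusted p = 0.0282). It turned to -0.30 with centring on the median of all genes (adjusted p = 0.628) and missed the threshold without BM_1 (0.0629) or BM_4 (0.0568). Of its 75-base stretches 16.6% occur in 13 other genes, of which Gm17709, with the largest share of them, had 47.2 ± 12.3 and 39.4 ± 3.28 normalised counts.

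Sat1 (chromosome X, 155213132 to 155216449, minus strand) had 1285, 1125, 751 and 1057 normalised counts in bone marrow and 1930, 2459, 3628 and 2200 in the small intestine. No bone marrow value reached the lowest small intestinal one. The means of 1055 ± 224 and 2554 ± 748 gave a difference of 1.26 ± 0.27 (limma, adjusted p = 0.00635), and 0.36 with centring on the median of all genes (adjusted p = 0.562). Sat1 over Odc1, a ratio of transcripts and not of enzyme activities, was 0.995 to 1.75 in bone marrow and 1.86 to 3.05 in the small intestine (log2 means 0.47 ± 0.35 and 1.13 ± 0.33, exact permutation p = 0.0286, adjusted 0.0429). Without BM_4, SI_6, SI_7, SI_10 or SI_11 the exact permutation p was 0.0571, above 0.05.

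Nampt (chromosome 12, 32819545 to 32853349, plus strand) rose with a wide spread. It had 798, 830, 557 and 966 normalised counts in bone marrow and 1340, 1928, 4427 and 2599 in the small intestine. SI_10 was 3.30 times SI_6, and even SI_6 was above every bone marrow library. The means were 788 ± 170 and 2574 ± 1338 with a difference of 1.59 ± 0.37 (limma, adjusted p = 0.0103), or 0.69 with centring on the median of all genes (adjusted p = 0.25).

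The genes for tryptophan and oxysterol enzymes were near the limit of detection. Ido1 (chromosome 8, 24584136 to 24597009, minus strand) had 0, 5, 2 and 4 reads in bone marrow and 8, 24, 18 and 19 in the small intestine, or 0, 3.26, 1.91 and 3.72 against 8.73, 33.3, 19.7 and 22.5 normalised counts. SI_6, where Nos2 was highest, had the least Ido1. The difference was 2.33 ± 0.49 (limma, adjusted p = 0.00584).

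Ch25h (chromosome 19, 34473778 to 34475164, minus strand) had no read in the 4 bone marrow libraries and 2, 5, 1 and 1 reads in the small intestine. Its small intestinal mean of 2.85 ± 2.77 normalised counts was 4.71 times the level that 3 reads over the bone marrow group would give. This ratio bounds the bone marrow side only and leaves out the spread of the small intestinal reads. The fitted difference was 1.53 ± 0.31 (limma, adjusted p = 0.0053), and it missed the threshold with quantile normalisation (0.80, adjusted p = 0.121) and with centring on the median of all genes (0.63, adjusted p = 0.295). Its exons share 159 bases with Gm26902 on the other strand, which had 8 reads in bone marrow and 27 in the small intestine, so the 9 Ch25h reads are uncertain.

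**Figure D4:**
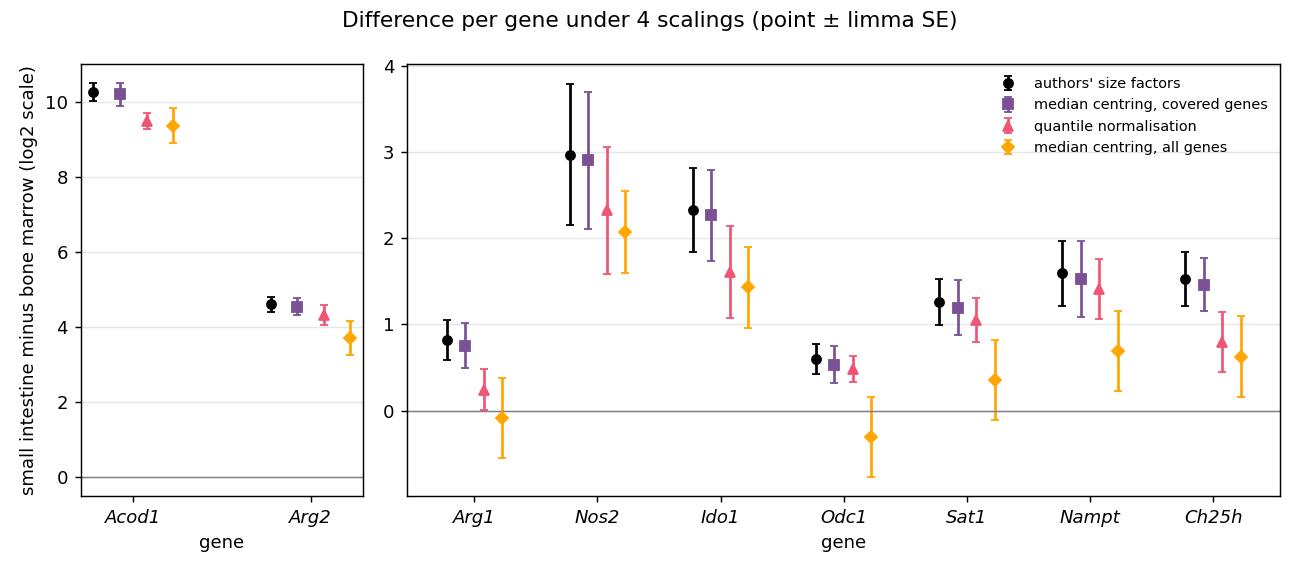
Difference of each of the 9 genes (small intestine minus bone marrow, log2 scale) with the authors' size factors and with 3 other scalings; points are limma estimates, bars are standard errors, and Acod1 and Arg2 have an axis of their own. Acod1 and Arg2 stay far above 0 with each of these 4 scalings, whereas Arg1 and Odc1 fall to -0.081 and -0.30 with centring on the median of all genes.

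The order of the levels, per kilobase of exon, changed between tissues. In bone marrow it was Sat1 (380 ± 80.6 normalised counts per kilobase), Odc1 (269 ± 14.5), Nampt (156 ± 33.7), Arg1 (14.8 ± 3.90), Arg2 (9.16 ± 1.91), Acod1 (1.34 ± 0.377), Ido1 (1.22 ± 0.914), Nos2 (0.696 ± 0.903) and Ch25h (0). The ranges of Sat1 and Odc1 overlapped, as did those of each pair of neighbours from Acod1 to Ch25h, and the other neighbours were apart. In the small intestine it was Acod1 (3217 ± 775), Sat1 (921 ± 269), Nampt (509 ± 265), Odc1 (409 ± 44.6), Arg2 (282 ± 34.6), Arg1 (27.0 ± 3.74), Ido1 (11.5 ± 5.53), Nos2 (8.93 ± 7.19) and Ch25h (2.05 ± 2.0). There the neighbours Sat1 and Nampt, Nampt and Odc1, Ido1 and Nos2, and Nos2 and Ch25h had overlapping ranges.

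Of the summed level of the 9 genes per kilobase, Acod1 made up 0.165% ± 0.0568 in bone marrow and 59.6% ± 3.87 in the small intestine. Sat1 went from 45.3% ± 4.42 to 17.1% ± 2.33 and Odc1 from 32.8% ± 5.12 to 7.87% ± 1.80, although both were higher in the small intestine. These shares do not depend on the scaling of libraries.

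Of 22 other measured genes of the polyamine pathway 3 were higher, 8 were lower and 11 did not pass, where 22.0% of all genes were called higher and 12.9% lower, with a median difference of -0.33 beside 0.37 over all genes. Srm, spermidine synthase, fell from 752 ± 38.5 to 70.7 ± 18.7 normalised counts (-3.38 ± 0.23 on the log2 scale; limma, adjusted p = 1.3e-05). Paox, a peroxisomal polyamine oxidase, fell from 76.3 ± 20.0 to 9.0 ± 3.54, and Amd1, which supplies the aminopropyl donor, from 541 ± 97.1 to 118 ± 33.3. The 3 that rose were Atp13a2, a lysosomal polyamine exporter (122 ± 7.55 to 731 ± 84.0), the vesicular transporter Slc18b1 (2.61 ± 2.59 to 89.7 ± 82.9) and Agmat, agmatinase (0.232 ± 0.465 to 21.8 ± 17.7). Slc18b1 and Agmat were highest in SI_6, at 208 and 46.9, the library with the most epithelial reads, whose part was not tested.

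Of 28 measured genes of arginine and nitric oxide metabolism 13 were higher, 7 lower and 8 not past the threshold, with a median difference of 1.02. With centring on the median of all genes 8 were higher and 8 lower. The largest rises were in Cps1 and Otc, the mitochondrial steps of the urea cycle, which are abundant in intestinal epithelium. Cps1 had 0, 2.61, 0.957 and 22.3 normalised counts in bone marrow and 8277, 2542, 947 and 1594 in SI_6, SI_7, SI_10 and SI_11 (difference 8.69 ± 0.89; limma, adjusted p = 0.000126). Otc had 616 in SI_6 and 67.8 in SI_10. Both were highest in SI_6, as were the epithelial reads, and in bone marrow both were highest in BM_5.

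Among genes that supply or use arginine, Slc7a1, an arginine importer, rose from 1040 ± 71.5 to 2442 ± 305 (1.22 ± 0.18; limma, adjusted p = 0.000938), and Gch1, which makes the cofactor of nitric oxide synthases, from 26.7 ± 3.70 to 144 ± 43.5. Gatm, the first enzyme of creatine synthesis, fell from 5129 ± 441 to 164 ± 24.8 (-4.95 ± 0.19; limma, adjusted p = 9.4e-07). Ass1, which rebuilds arginine from citrulline, fell from 189 ± 25.3 to 16.9 ± 8.20, whereas Asl, the next step, rose from 208 ± 57.0 to 411 ± 45.5.

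Among 24 measured genes of itaconate and its targets 7 were higher, 7 lower and 10 not past the threshold, with a median difference of -0.079. With centring on the median of all genes 3 were higher and 11 lower. Atf3, known to be induced by electrophilic itaconate derivatives, and Nfkbiz, whose protein they are known to repress, rose from 2.13 ± 1.15 to 1951 ± 210 (8.57 ± 0.22; limma, adjusted p = 1.8e-07) and from 157 ± 21.9 to 18460 ± 4010 (6.82 ± 0.23; adjusted p = 4.7e-07). Keap1, the sensor that itaconate can alkylate, fell from 263 ± 54.1 to 55.9 ± 5.96 and Idh2, a mitochondrial isocitrate dehydrogenase, from 755 ± 110 to 183 ± 72.7. Nfe2l2, the factor that Keap1 holds back, rose from 2880 ± 104 to 6493 ± 859, while Hmox1 (238 ± 34.1 to 80.9 ± 11.5) and Gclm (754 ± 82.5 to 224 ± 16.0), known as targets of it among others not counted here, fell. Hmox1 and Gclm were named after their values were seen and do not stand for the targets of Nfe2l2 as a whole. Atf3 also belongs to a list of 12 genes that respond to tissue dissociation, all of which rose and which took 0.00761% to 0.00965% of the bone marrow reads and 0.546% to 0.692% of the small intestinal ones, most in SI_10, where Acod1, Sat1 and Nampt were highest too. The part of cell handling in these values was not tested.

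In the tryptophan and kynurenine list 7 of 17 measured genes were higher, 2 lower and 8 not past the threshold (median 0.77). The balance turned to 3 higher and 4 lower with centring on the median of all genes, and to 1 and 4 with quantile normalisation. Kynu, kynureninase, rose from 7.86 ± 9.37 to 52.9 ± 26.6 and was highest in SI_6, at 92.8. Slc3a2, the heavy chain of the large amino acid carrier, rose from 577 ± 59.7 to 4780 ± 736 (3.03 ± 0.20; limma, adjusted p = 1.2e-05), while its light chain Slc7a5 fell from 349 ± 27.7 to 45.3 ± 15.2 (-2.90 ± 0.26; adjusted p = 5.7e-05) and Qprt, which leads from kynurenine products to NAD, from 76.1 ± 4.44 to 10.9 ± 3.99. The count of rises was 1 without SI_10, 2 without SI_6, 3 without BM_3 or BM_4 and 4 without SI_7 or SI_11.

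Of 24 measured NAD genes 8 were higher, 6 lower and 10 not past the threshold (median 0.26). It turned to 2 higher and 9 lower with centring on the median of all genes, and to 5 and 8 with quantile normalisation. Nmrk1, which uses nicotinamide riboside, rose from 98.9 ± 32.0 to 488 ± 79.3, and Cd38, an NAD-consuming ectoenzyme, from 48.0 ± 10.1 to 451 ± 355, with 929 in SI_6 and 161 in SI_10. Parp1, a nuclear consumer of NAD, fell from 1725 ± 76.6 to 212 ± 98.8 (-3.10 ± 0.30; limma, adjusted p = 8.7e-05) and Nmnat3, a mitochondrial NAD synthase, from 189 ± 18.8 to 82.4 ± 30.3.

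Of 23 measured oxysterol genes 13 were higher, 5 lower and 5 not past the threshold (median 0.94). Gpr183, the receptor of the oxysterol that Cyp7b1 makes from the product of Ch25h, rose from 82.0 ± 9.37 to 1933 ± 315 (4.49 ± 0.20; limma, adjusted p = 1.6e-06). Cyp7b1 itself had 1.63 ± 3.25 and 8.82 ± 4.59 normalised counts, both low. Abca1, a sterol exporter induced through liver X receptors, rose from 45.4 ± 18.9 to 712 ± 118, while Hsd11b1, which reduces cortisone and 7-ketocholesterol, fell from 2056 ± 166 to 142 ± 25.0 and Osbpl8, a lipid transfer protein, from 3243 ± 251 to 1403 ± 269.

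**Figure D5:**
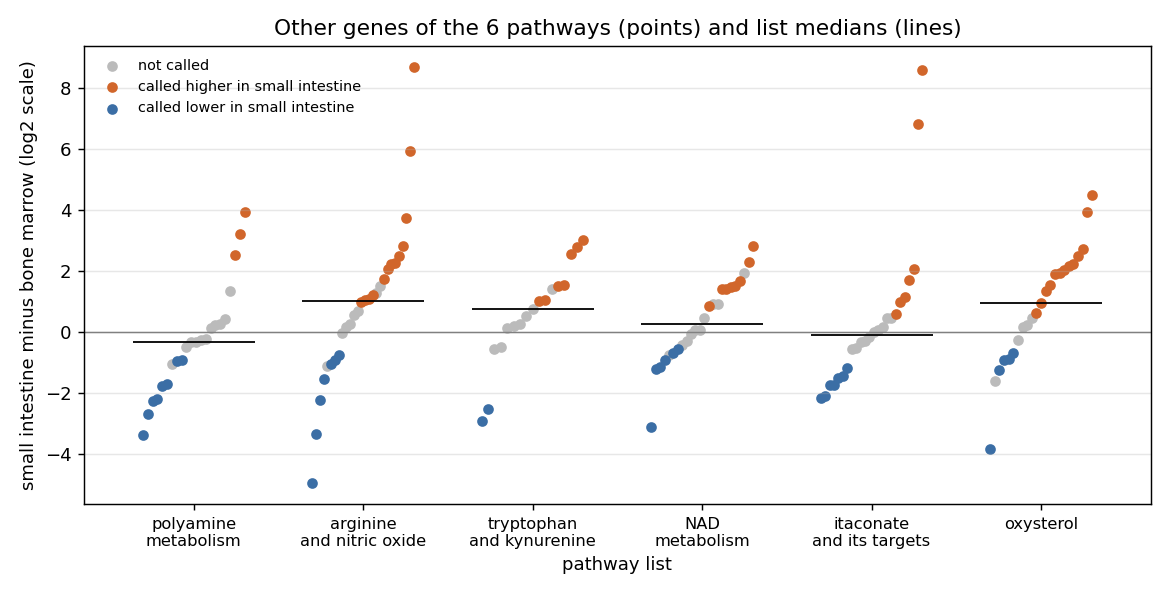
Difference (small intestine minus bone marrow, log2 scale) of each gene of the 6 pathway lists, sorted within a list; colours mark genes called higher, called lower and not called by limma, and lines are list medians. The polyamine list has 3 rises and 8 falls with a median of -0.33, and the highest points are Cps1 at 8.69 and Atf3 at 8.57.

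Over the 6 lists 51 calls were higher and 35 lower, and with centring on the median of all genes 26 and 53. Quantile normalisation gave 36 and 44. Centring on genes that averaged 10 reads or more gave 45 and 37, and a fit to the reads themselves (voom) 53 and 39. The balance of the directions thus turned with centring on all genes and with quantile normalisation, and held with these others. With centring on the median of all genes the calls in the polyamine list were 3 higher and 14 lower, and in the oxysterol list 7 and 7.

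The genes most like each of the 9 over the 8 libraries were found by the Euclidean distance between deposited values centred on the mean of each gene, among 13413 named genes that averaged 10 reads or more. For Acod1 the nearest was Cxcl3, a neutrophil-attracting chemokine (distance 0.57; 9.47 ± 1.55 to 17162 ± 4569 normalised counts). For Arg2 they were Camk2d (0.49) and Rab11fip4 (0.61), for Arg1 Nol10 (0.33) and Pde4d (0.34), and for Nos2 Nipal2 (0.73) and Camk2n1 (0.94). Odc1 lay nearest to Phka1 (0.20) and Ginm1 (0.21), Sat1 to Il3ra and Crbn (both 0.47), and Nampt to Ube2d3 (0.76) and Tcerg1l (0.82). Ido1 lay nearest to Slc16a9 (0.77) and Avil (0.88), and Gsdmcl-ps (0.73) was among the nearest to Ch25h.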

How the data were processed

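Total RNA of sorted cells with an RNA integrity number of at least 7 was amplified to cDNA and read from a single end, with reads of at least 75 bases. The authors aligned reads to GRCm38 (Ensembl release 86) and counted them per gene with the nf-core/rnaseq pipeline; the values they deposited are log2-like variance-stabilised values from DESeq2 (R 4.0.3, per the submitters' processing notes). The aligner within that pipeline, the strand setting and the handling of ambiguous reads were not given in the sources used here. On this scale a step of 1 approaches a doubling of abundant genes and is less for rare ones. Column names gave the tissue of a library but not its sample.

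The transformation was inverted from its lowest value, 0.92971568, to reads that were whole within 0.05 for every gene. Depth limits precision below about 10 reads; intervals were not computed from counts. All 38392 genes and 8 libraries entered limma 3.58.1 in R 4.3.3 (constant prior, no covariate or filter, 2-sided, Benjamini-Hochberg over all genes, threshold 0.05). The fit was tried on simulated reads with the same dispersion for every gene. Of 200 changed genes it recovered 81 of the 4-fold and 96 of the 15-fold changes. It made 73 false calls among 38392 genes, 71 of them with a mean under 100 normalised counts. Beside the 81 and 96 true calls, that is a larger share of the calls than the 0.05 the adjustment aims at. The adjusted p of genes under that mean, among them Arg1, Nos2, Ido1 and Ch25h, may thus be too small. A trended prior recovered 98 and 100 and made 1 false call. The shared dispersion ties the spread of a gene to its mean, which that prior assumes, so its better score was favoured in advance. Real replicates can spread otherwise, so these rates need not hold for them. Single ratios used exact permutation tests. Other steps used Python 3.11.15, numpy 2.4.6 and pandas 2.3.3. Alternatives were other scalings, a trended prior, a filter at 10 reads, voom on the reads, and leaving out each library. The genes, pathway and marker lists were chosen with earlier results of these data known. Named were the 9 genes, the 2 largest rises and falls of each pathway list, the 2 nearest genes of each, of which 1 for Acod1 and 1 for Ch25h are not reported here, and leading markers; Amd1, Slc7a1, Gch1, Asl, Nfe2l2, Hmox1, Gclm and Cyp7b1 were named after their values were seen, as were the cell type marker genes shown.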

Additional observations from a re-analysis of the deposited data

Results flagged for a closer look

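The share of reads in the eosinophil marker list was 0.295% in SI_6, apart from the 0.350%, 0.351% and 0.358% of SI_7, SI_10 and SI_11. The gap of SI_6 to the nearest library was 0.864 of the whole range of the 4, above the 95% critical value of Dixon's test. It was the only group set apart among 54 examined, where chance sets apart about 1 in 20. SI_6 was also the library with the highest epithelial share (0.232%) and the highest Nos2. Without it 8 of the 9 genes were called higher, as were 7755 of the 38392 genes, with Nos2 at 2.51 (limma, adjusted p = 0.0742).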

How the results depend on the processing

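Acod1 (9.36 to 11.10), Arg2 (3.71 to 4.92) and Ido1 (1.43 to 3.31) kept their direction and stayed past the threshold under every alternative. With centring on the median of all genes 4 of the 9 genes were called higher and 3 did not overlap; Arg1 (-0.081) and Odc1 (-0.30) turned, and Sat1 (0.36), Nampt (0.69) and Ch25h (0.63) missed the threshold. Over all genes that centring gave 4285 higher and 10216 lower against 8465 and 4937 (29.5% of calls higher against 63.2%, and 45.8% with quantile normalisation), and over the pathway lists 26 and 53. Centring on genes that averaged 10 reads or more left Arg1 (0.75) and Odc1 (0.53) short (adjusted p = 0.0569 and 0.088). With quantile normalisation 5 of the 9 did not overlap, and Arg1 (0.24) and Ch25h (0.80) missed. The share of all genes without overlap was not computed for that normalisation or for centring on all genes. The overlap counts under them thus describe the 9 genes only. With a trended prior all 9 genes were called higher, as were 8683 of the 38392 genes. The limma adjusted p then ranged from 1.4e-29 (Acod1) to 0.031 (Arg1). The filter at 10 reads removed Ch25h. Leaving out each library in turn gave 6 to 9 of the 9 genes called higher, with 6 without BM_4 and 7 without BM_1. Of all genes 6701 (without BM_1) to 9596 (without BM_5) were called higher in these runs. The differences were 2.51 to 3.57 for Nos2, 0.54 to 0.64 for Odc1 and 0.72 to 0.96 for Arg1. In the same leave-one-out runs the Nos2 over Arg2 difference ranged from -1.47 to 0.15, reversed without BM_5, and that of Sat1 over Odc1 from 0.50 to 0.77. Taken from the deposited values, the Nos2 over Arg2 difference was -1.64. The polyamine list had 5 rises with the trended prior and with voom. The cause of these changes was not tested. No paired analysis was possible because no replicate number occurs in both tissues. Depth limits Ch25h, Nos2 and Ido1, with 0, 15 and 11 reads over the bone marrow libraries and 9, 136 and 69 over the small intestinal ones.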
